A study of Mus musculus with 12 samples.

Results

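Wild type mice underwent sham surgery or transverse aortic constriction (TAC), and whole left ventricle from both groups was compared here gene by gene. TAC is a tie around the aortic arch, set here with a 27-gauge needle, so that the ventricle must pump against a raised pressure. The operation was done at 10 weeks of age and the tissue was taken 5 weeks later, at 15 weeks, in both groups. There were 3 sham and 3 TAC libraries, 6 of the 12 in the series. The other 6 came from mice carrying Prkca T497A, a changed protein kinase C alpha, and served only in the shared estimate of the spread. Neither strain nor sex of the mice is stated in the labels. The cell type is labelled cardiomyocyte, while the protocol describes RNA from cardiac tissue and no sorting. Markers of fibroblasts, endothelium and macrophages were detected beside those of cardiomyocytes, so the values describe whole tissue. Whether the 3 libraries of a group are 3 animals is not said, and p-values then measure the spread between these libraries, which may be technical. All 12 carry 1 batch date.

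Genes with at least 10 counts in at least 3 of the 6 libraries were tested, 15243 of the 55401 in the table. The unit of level is CPM, each count divided by its TMM-scaled library size, and a gene was called when its adjusted p was under 0.05 in edgeR's quasi-likelihood test. After TAC 1963 genes, 12.9% of those tested, were higher and 1996, or 13.1%, were lower. Every TAC library lay above every sham library in 21.9% of the tested genes and below in 21.2%. At least 2-fold changes numbered 668 up and 343 down. Library totals ran from 36862004 to 46415153 counts. The first principal component of the 6 libraries held 53.7% of the variance and placed the sham libraries at -45.3, -30.5 and -43.2 and the TAC libraries at 43.4, 28.9 and 46.8. The second component (16.4%) spread both groups, over 23.5, -1.14 and -28.8 in the sham libraries and -21.8, 33 and -4.77 in the TAC libraries. Small falls depended on the scaling: with library totals in place of TMM factors, the log2 fold changes shift by a median of 0.185, 3882 genes are called higher and 945 lower, and the higher share of the calls goes from 49.6% to 80.4%. Mitochondrially encoded genes took 25.1% to 29.0% of the counts after sham and 19.6% to 20.9% after TAC. With totals of nuclear genes alone the median shift is 0.058, with 2273 genes higher and 1494 lower.

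The adult left ventricle is built mainly of cardiomyocytes, which hold most of its RNA, with fibroblasts, capillary endothelium, mural cells and macrophages between them. Cardiomyocytes draw their energy from mitochondria that burn fatty acids, and express muscle-predominant versions of many enzymes and structural proteins. Under lasting pressure overload the muscle cells enlarge and interstitial fibroblasts become matrix-secreting cells, some of which take on genes known from tendon and cartilage. In bulk tissue a change in the number of cells of a type and a change in RNA per cell cannot be told apart.

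Called falls were more frequent among abundant transcripts, but mostly under 2-fold. Of the 85 genes with a mean of at least 1000 CPM, 45 were called lower (52.9%) and 10 higher. Of those 45, 9 are mitochondrially encoded and 0 were at least 2-fold lower, while 4 genes of that bin were at least 2-fold higher. Between 100 and 1000 CPM, 33 rises and 13 falls were at least 2-fold. The part of count depth in these calls was not tested. Of the 4743 genes between 1 and 10 CPM, 656 were called higher (13.8%) and 396 lower (8.35%). With library totals the lower share is 32.9% in the top bin and 5.25% between 1 and 10 CPM, and the higher shares are 23.5% and 24.1%. The called-lower genes took 56.5%, 55.4% and 57.4% of all counts in the sham libraries and 44.7%, 45.2% and 42.5% in the TAC libraries. The called-higher genes took 6.78%, 7.27% and 6.40% after sham and 14.3%, 12.5% and 13.8% after TAC. These shares describe genes selected by the same comparison and are no test. Mitochondrially encoded genes apart, the largest gain in CPM was that of Ankrd1, a stretch-responsive protein of the sarcomere, and the largest loss that of Myh6, the adult cardiac myosin heavy chain. Myh6 lay at 28861, 20058 and 23121 CPM in the sham libraries and at 13528, 17961 and 15732 in the TAC libraries, with no overlap between the groups.

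**Figure D1:**
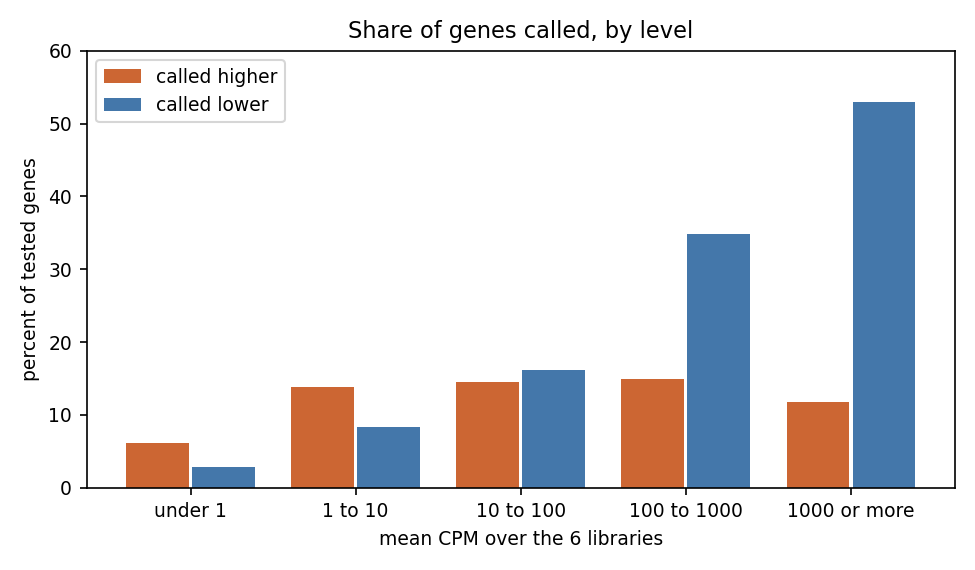
Bars show the percent of tested genes called higher (orange) or lower (blue) after TAC, with genes binned by their mean CPM over the 6 wild type libraries. The lower share grows from 2.87% under 1 CPM to 52.9% at 1000 CPM or more, while the higher share is 11.8% in that top bin. In the top bin 0 of the falls and 4 of the rises are at least 2-fold.

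Among the cell type lists, that of activated fibroblasts had the largest median. It holds genes of an activated state, and the lists were chosen with earlier results of these data known, so this rank is no test. Of 20 markers of activated fibroblasts 16 rose and none fell, with a median log2 fold change of 2.22 beside 0.014 over all tested genes. Their mean log2 level stood 2.05, 2.06 and 2.11 above sham in the 3 TAC libraries, and their summed level was 258.8 to 303.9 CPM after sham and 1364 to 1568 after TAC. Ltbp2, a matrix protein of elastic fibres, lay at 3.51, 7.37 and 5.02 CPM in the sham libraries and at 86.9, 83.8 and 87.0 in the TAC libraries. That is a 16.2-fold rise (log2 4.02 ± 0.36 SE, edgeR adjusted p = 7.83e-05). Cilp, a matrix protein first known from cartilage, rose 21.8-fold (197, 165 and 266 CPM after TAC), and Cthrc1, a secreted protein of collagen-producing cells, 11.0-fold at a low level (1.27, 2.61 and 1.77 CPM). The 4 markers not called were Acta2 (log2 fold change -0.32), Fap (0.42), Chad (-0.52) and Cytl1 (-0.34). Acta2, the smooth muscle actin of contractile myofibroblasts, was at 103, 79.7 and 107 CPM in the sham libraries and 81.8, 75.3 and 74.8 in the TAC libraries, which overlap; smooth muscle cells express it too.

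Genes of cartilage, bone and tendon had a median of 1.62, and 8 of the 10 tested rose. Tnmd (tenomodulin, a membrane protein of tendon) had CPM of 0, 0 and 0.174 in the sham libraries and 1.62, 1.82 and 1.63 in the TAC libraries. Col11a1 and Comp, both of cartilage matrix, rose by 3.10 and 3.59 on the log2 scale, and the lineage factors Sox9, Scx and Runx2 by 1.42, 1.40 and 1.46. Scx, Comp and Chad stand in both fibroblast and cartilage lists. Another 8 of the 18 listed genes were too low to test, among them Col2a1, Sp7 and Bglap, which define mature cartilage and bone. The remaining 2 tested genes were not called, among them Chad at -0.52.

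Resting fibroblast markers split. Of 17, 7 rose and 2 fell (median 0.35). Mfap4, a microfibril protein, went from 4.94, 10.4 and 8.30 CPM to 58.7, 61.2 and 59.7, and Pi16, a marker of fibroblasts around vessels, rose 4.05-fold. Scara5, a scavenger receptor of the same cells, fell from 27.3, 20.7 and 22.4 CPM to 7.41, 8.17 and 7.50, a 3.05-fold fall. The lineage markers Pdgfra and Tcf21 were at 0.35 and 0.27, not called, and Pdgfra was called higher with library totals. Of 36 collagen chains 23 rose and 1 fell. Col1a1, a main fibrillar chain, went from 89.1, 128 and 99.4 CPM to 464, 416 and 459. Col6a6, a collagen VI chain, fell 4.56-fold (20.7, 15.0 and 15.7 to 4.43, 3.99 and 2.84 CPM), while Col6a1 and Col6a2 rose by 1.25 and 1.28 on the log2 scale. Collagen chains together took 0.155% to 0.225% of all counts after sham and 0.520% to 0.657% after TAC. Genes that fold and export collagen moved less: 15 of 44 secretory pathway genes rose and 1 fell (median 0.21). Rcn3, an ER protein of collagen-secreting cells, rose 2.40-fold and the receptor Kdelr3, which returns chaperones to the ER, 2.24-fold. Canx, the ER chaperone calnexin, fell from 415, 388 and 441 CPM to 317, 283 and 304.

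**Figure D2:**
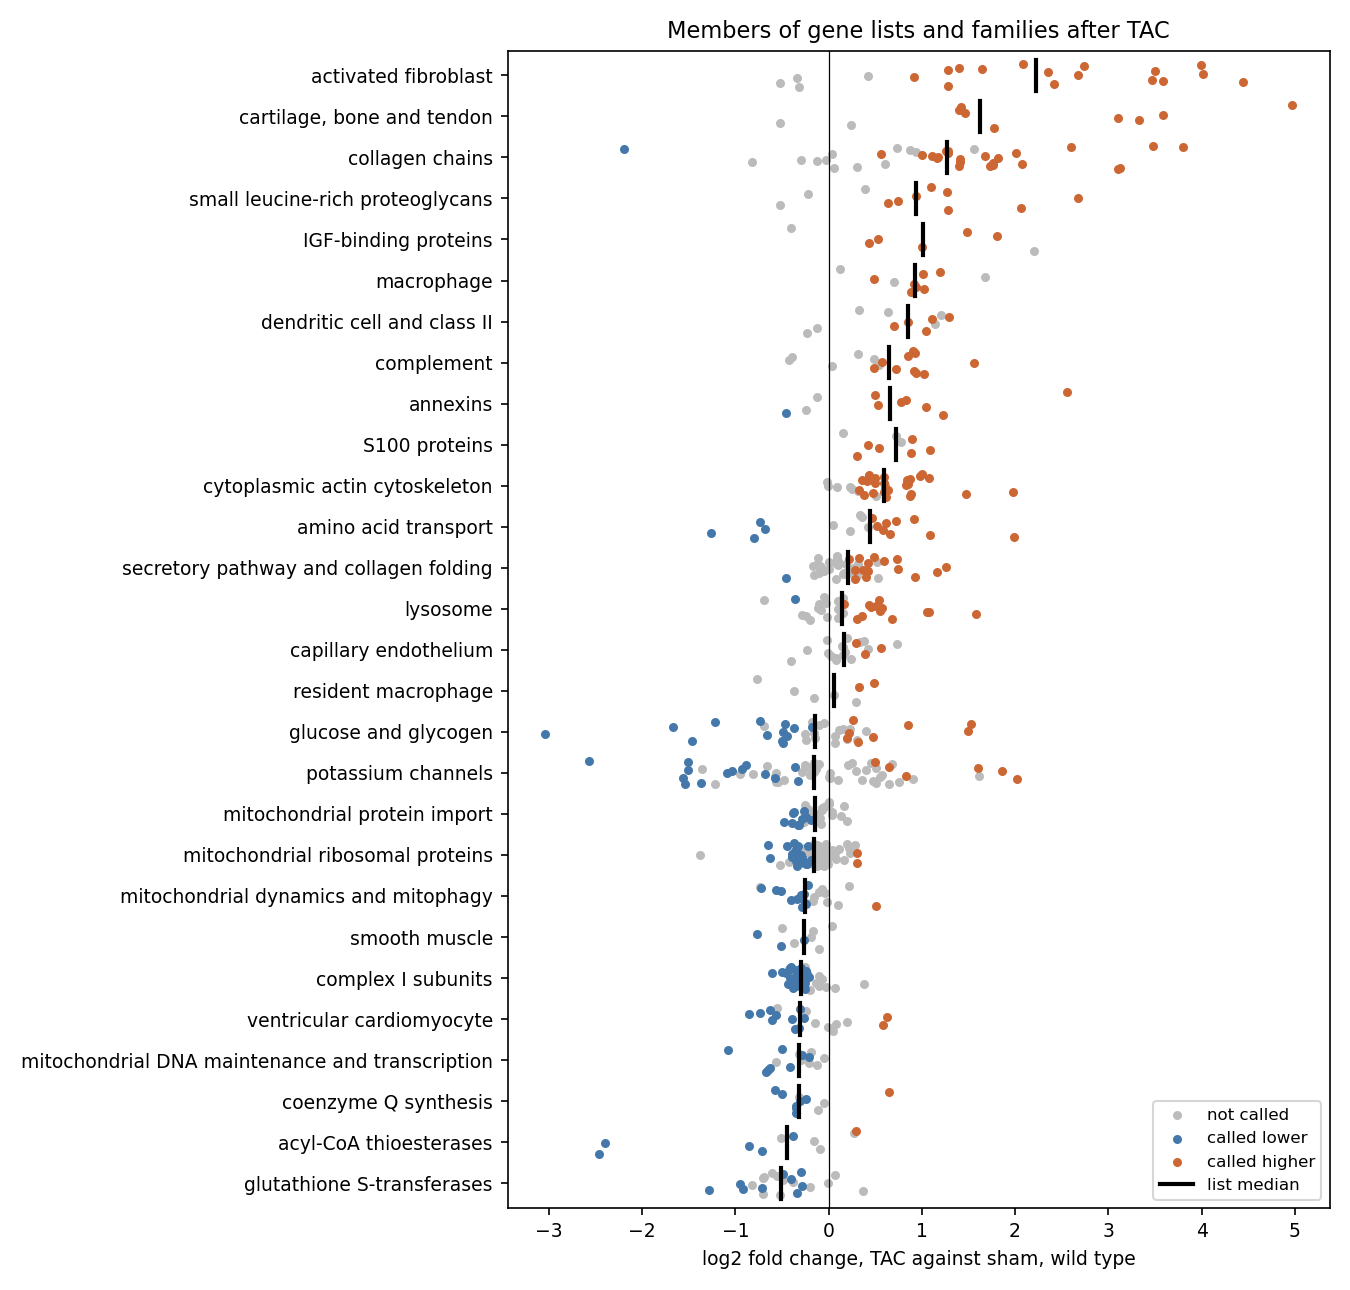
Each point is 1 tested gene, placed by its log2 fold change (TAC against sham), in orange when called higher, blue when called lower and grey when not called; black bars are list medians. Medians run from 2.22 for activated fibroblast markers to -0.51 for glutathione S-transferases. Those of the mitochondrial lists run from -0.15 to -0.32, while members of most of these lists lie on both sides of 0.

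Myeloid markers rose, but not all kinds. Of 10 general macrophage markers 7 rose (median 0.93), among them the complement gene C1qa, at 21.82, 23.04 and 20.96 CPM in the sham libraries and 48.3, 43.5 and 42.0 in the TAC libraries. Of 7 tested markers of recruited monocytes and macrophages 4 rose (median 1.61). The monocyte chemokine receptor Ccr2 went from 1.43, 1.25 and 1.68 CPM to 4.87, 3.14 and 4.66, and Spp1 (osteopontin) rose 7.98-fold. Lgals3 (galectin 3) rose 5.27-fold. Trem2, a lipid-sensing receptor, was called at 3.06-fold but lost the call without any of the sham libraries or without TAC replicate 1 or 2 (edgeR adjusted p 0.0644 to 0.132). The 7 markers of resident macrophages had a median of 0.062: Timd4 and Folr2 were at -0.77 and -0.37, not called, and the 2 called members rose by 0.49 (Mrc1) and 0.33 (Gas6). Both lost their calls without sham replicate 1 or 3, Mrc1 also without TAC replicate 1 and Gas6 without TAC replicate 2 or 3 (edgeR adjusted p 0.0536 to 0.0978). Without TAC replicate 1, 1 resident marker, Timd4, was called lower. Over the 5 resident markers with a mean of at least 5 CPM the median was 0.29, and the 1 recruited marker at that level was at 0.30. The resident and recruited lists were not tested against each other. Of 11 dendritic cell and class II genes 5 rose, and H2-Eb1, which presents peptides to helper T cells, went from 7.22, 8.84 and 12.9 to 25.2, 19.1 and 26.3 CPM. No marker of T and NK cells (5 tested), B cells (10), neutrophils (3) or mast cells (5) was called in the edgeR test. Of these 23 genes 2 had an unadjusted p under 0.05, DESeq2 called 1 and limma-voom 0, and 21 lay under 5 CPM in both groups.

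Complement genes rose and lysosomal genes rose in part. Of 16 complement genes 10 rose and 0 fell (median 0.65), including C4b (2.95-fold), Masp1 and the inhibitor Serping1. Serping1, which blocks the first step of the classical pathway, lay at 80.4, 79.6 and 78.3 CPM in the sham libraries and 155, 146 and 145 in the TAC libraries. C3, on which all pathways converge, was at 0.03 and not called. Of 30 lysosomal genes 13 rose and 1 fell (median 0.15). Ctsk, a cathepsin that cuts collagen, rose 2.98-fold, Ctsz 2.12-fold and Ctss, which cuts the invariant chain of class II, 2.08-fold. Psap, the precursor of the lysosomal saposins and the most abundant of these examples, fell from 1214, 1204 and 1125 CPM to 920, 920 and 927, a call that library totals remove. The summed lysosomal level was similar, at 3786 to 3971 CPM after sham and 3899 to 4008 after TAC. The myeloid lists include C1qa, C1qb and C1qc, which the complement list holds as well. The summed macrophage markers lay at 119 to 140.8 CPM after sham and 207.6 to 253.2 after TAC, and their part in these rises was not tested.

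Vessel and nerve markers gave smaller and mixed changes. Of 20 capillary endothelial markers 3 rose and none fell (median 0.17): Nos3, the endothelial nitric oxide synthase, the junction protein Esam and the receptor Robo4 by 0.56, 0.39 and 0.30. The share called higher was 15.0%, near the 12.9% over all tested genes. The groups overlapped for Robo4, which lost its call without sham replicate 2 or 3 or TAC replicate 1 or 2 (edgeR adjusted p 0.0608 to 0.171). Pecam1, Cdh5 and Kdr were at 0.16, 0.08 and -0.23, not called. In the pericyte list the called shares were 10.0% each way, near the 12.9% higher and 13.1% lower over all tested genes. Of its 10 markers 1 rose and 1 fell. The latter, Abcc9, also encodes a subunit of cardiomyocyte KATP channels and went from 739, 579 and 717 CPM to 342, 323 and 326. Of 9 smooth muscle markers 3 fell (median -0.27; -0.083 with library totals). The count was 1 with library totals, with nuclear totals, with limma-voom, in a fit of the 6 wild type libraries, and without sham replicate 1, sham replicate 3 or TAC replicate 3. Of 8 Schwann cell markers 2 fell (4 with DESeq2, 5 in a fit of the 6 wild type libraries alone). Sox10, a transcription factor of the lineage, fell by 1.09 on the log2 scale. Sox10 lost its call without sham replicate 3, TAC replicate 2 or TAC replicate 3 (adjusted p 0.0858, 0.0601 and 0.0789 with edgeR). The mean of the Schwann list lay at -0.80, -0.75 and -0.82 in the TAC libraries, all below sham. Erythrocyte markers rose in 4 of 8 (median 0.80), but 0 to 2 were called without sham replicate 1 or 2 or TAC replicate 2 or 3, and globin genes have near-identical copies. Skeletal muscle genes were uneven within groups: their mean log2 level was -0.38, 1.53 and -1.28 in the TAC libraries relative to sham, and 0.76, 0.44 and -1.20 in the sham libraries. Their summed level did not overlap, at 64.77 to 79.23 CPM after sham and 142.5 to 183.7 after TAC. Of the 9 tested, 2 were called higher and 0 lower.

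**Figure D3:**
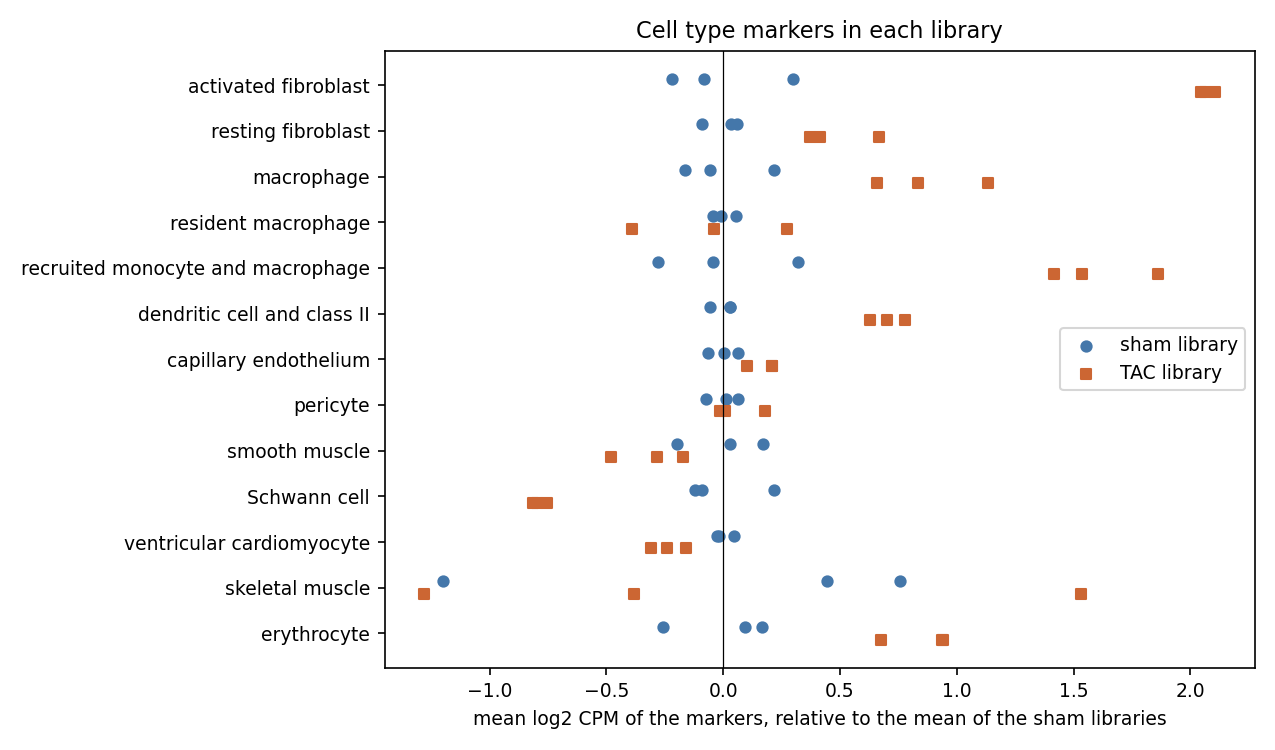
Each symbol is 1 library (blue circles sham, orange squares TAC), placed by the mean log2 CPM of a marker list relative to the mean of the sham libraries. Activated fibroblast scores of the TAC libraries sit between 2.05 and 2.11, resident macrophage scores range from -0.39 to 0.27, and skeletal muscle scores scatter in both groups.

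Most genes of the cytoplasmic actin cytoskeleton list rose. It holds the non-muscle actins, their bundlers, severers and motors, as opposed to sarcomeric actin. Of 34 genes 26 rose and none fell, with a median of 0.59. The mean level stood 0.65, 0.54 and 0.66 above sham in the TAC libraries, and between 19 and 23 genes were called higher when any 1 library was left out. Capg, which caps filament ends, rose 3.93-fold (2.63, 4.42 and 3.34 to 13.6, 12.5 and 14.8 CPM). Anln, a scaffold of the contractile ring, rose 2.78-fold, Tmsb10, which binds actin monomers, 2.11-fold, and Vim, the intermediate filament of non-muscle cells, from 169, 169 and 175 to 337, 370 and 302 CPM. Filamin A was an exception, at 0.09 (Flna, not called), while its muscle relative Flnc rose 1.81-fold (432, 434 and 370 to 837, 594 and 809 CPM). The activated fibroblast and macrophage lists, whose summed levels are given above, were higher in the same libraries, and their part in the actin values was not tested. Annexins, which bind membranes in the presence of calcium, and S100 proteins, their partners, gave medians of 0.66 and 0.72, with 7 of 10 and 6 of 9 members higher. Anxa2 went from 41.5, 48.0 and 46.4 to 105, 85.4 and 89.3 CPM and S100a11 from 10.3, 11.7 and 11.3 to 25.16, 23.68 and 21.98.

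Promoters of tested genes were searched for short motifs, from 250 bases before to 50 after the RefSeq start site (14362 promoters of 11242 genes, GRCm38.p6). The AP-1 motif TGANTCA, in either orientation, was found in 5.33% of all promoters. It was found in 9.92% of the 605 promoters of genes at least 2-fold higher and 7.22% of the 291 promoters of genes at least 2-fold lower. Among genes called under 2-fold the motif was in 5.4% of 1314 promoters of those higher and 5.31% of 1658 of those lower. By list it was found in 0 of 16 promoters of activated fibroblast genes, 3.23% of those of collagen chains and 5.41% of those of the actin list. It was found in 10.3% of those of mitochondrial import and 8.82% of those of complex I. The CArG box, which binds serum response factor, was found in 1.29% of all promoters and 2.31% of those of the 2-fold higher genes. Promoters of genes called higher under 2-fold held it in 1.29%. It was found in 10.8% of the 37 promoters of the actin cytoskeleton list. TEAD's motif CATTCC was found in 12.6% of all promoters, 13.9% of the higher and 15.8% of the lower set. Median GC content was 60.3% over all promoters, 58.0% in the higher and 57.3% in the lower set. These shares are descriptions without a test, and a match is not a site shown to be used. The MEF2 motif was found in 1.99% of all promoters and 1.49% of those of the 2-fold higher genes. The following windows, on the gene's own strand and upstream of the start, chosen after the values were seen, show such matches in genes that rose, with the motif in capitals: the CArG box and then the TEAD motif in Acta1 (chr8:123894791-123894873, minus strand), the CArG box in Fhl1 (chrX:56779556-56779615, plus strand), the TEAD motif read on the other strand as GGAATG in Ankrd1 (chr19:36119937-36119992, minus strand), and the AP-1 motif and then a MEF2 motif in Xirp2 (chr2:67445870-67445962, plus strand).
Acta1: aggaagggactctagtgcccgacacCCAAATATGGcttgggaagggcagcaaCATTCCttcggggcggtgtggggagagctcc
Fhl1: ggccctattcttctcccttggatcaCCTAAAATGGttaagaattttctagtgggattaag
Ankrd1: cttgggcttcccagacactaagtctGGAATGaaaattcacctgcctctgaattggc
Xirp2: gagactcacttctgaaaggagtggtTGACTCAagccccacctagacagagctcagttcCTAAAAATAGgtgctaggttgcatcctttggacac
Acta1, the skeletal muscle actin, had 131, 472 and 101 CPM in the sham libraries and 4303, 2103 and 2816 in the TAC libraries. Fhl1, a LIM protein of the sarcomere, went from 116, 116 and 112 to 458, 225 and 315 CPM. Ankrd1 went from 1226, 2586 and 1132 to 6714, 5179 and 6416 CPM. The Ankrd1 window lies upstream of a RefSeq start but inside the gene as GENCODE places it, which begins at 36120099 on the minus strand. Xirp2, an actin-binding protein of the intercalated disc, went from 1249, 1664 and 1435 to 3979, 3020 and 4710 CPM. In none of these 4 genes did the groups overlap.

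AP-1 matches close to the start site are shown for 4 more genes that rose, to show the same TGAGTCA, in capitals, in 4 promoters. They are Sphk1 (chr11:116531762-116531818), Fgl2 (chr5:21372632-21372672), S100a11 (chr3:93520433-93520489) and Anxa2 (chr9:69453563-69453619), each on the plus strand.
Sphk1: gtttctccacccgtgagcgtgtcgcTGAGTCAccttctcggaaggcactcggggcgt
Fgl2: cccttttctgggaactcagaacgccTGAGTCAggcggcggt
S100a11: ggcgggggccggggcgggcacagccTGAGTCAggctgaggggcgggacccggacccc
Anxa2: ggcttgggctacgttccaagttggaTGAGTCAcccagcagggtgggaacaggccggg
Sphk1, which makes the lipid mediator sphingosine 1-phosphate, rose 5.51-fold, from 0.554, 0.647 and 0.348 to 2.35, 2.63 and 3.68 CPM. Fgl2, a membrane-bound prothrombinase, rose 3.12-fold, from 44.4, 47.6 and 66.5 to 157, 137 and 201 CPM. Fgl2 belongs to a coagulation and fibrinolysis list of which 9 of 20 rose and 2 fell (median 0.46). F3 (tissue factor), which starts clotting, fell from 20.7, 19.2 and 23.9 to 14.4, 11.8 and 14.8 CPM.

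Several secreted and stress genes changed with little spread. Nupr1, a stress-induced nuclear protein, lay at 2.17, 1.96 and 1.80 CPM in the sham libraries and 10.5, 11.3 and 11.2 in the TAC libraries (chromosome 7, 126623249 to 126630861 of GRCm38). That 5.53-fold rise had the smallest p of the comparison together with that of Mgp (edgeR adjusted p = 1.19e-06 for both). Mgp, an inhibitor of calcification, lay at 68.5, 78.4 and 63.8 CPM in the sham libraries and 311, 276 and 283 in the TAC libraries (chromosome 6, 136872435 to 136875823). Pamr1, a secreted protein with a protease-like domain, rose 6.86-fold, and Pam, the enzyme that amidates peptide hormones, went from 713, 812 and 736 to 1414, 1348 and 1681 CPM. Edn3 (endothelin 3) lay at 2.58, 4.33 and 1.74 CPM in the sham libraries and 34.5, 32.4 and 33.4 in the TAC libraries (chromosome 2, 174760619 to 174784042). Of 7 IGF-binding proteins 5 rose (median 1.01), led by Igfbp6 (3.502-fold) and Igfbp7 (2.80-fold); 3 were called without sham replicate 1, TAC replicate 1 or TAC replicate 3. Of 18 serpins 9 rose. Serpina3n rose 5.27-fold, from 6.64, 7.05 and 5.98 to 39.3, 30.5 and 34.1 CPM. The largest fold of all the named genes was that of Serpinb1c, a serpin of the leukocyte elastase inhibitor clade, at 0.185, 0.089 and 0 CPM in the sham libraries and 12.9, 3.25 and 10.1 in the TAC libraries (87.9-fold, log2 6.46 ± 0.80 SE, edgeR adjusted p = 0.000256). Vgll2, a TEAD cofactor of skeletal muscle, rose 60.5-fold from 0.138, 0.134 and 0.058 CPM to 13.4, 1.52 and 6.12. In both, TAC replicate 2 was the lowest of its group and still above every sham library. Serpinb1c has close relatives in the same gene cluster, so its counts are uncertain.

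**Figure D4:**
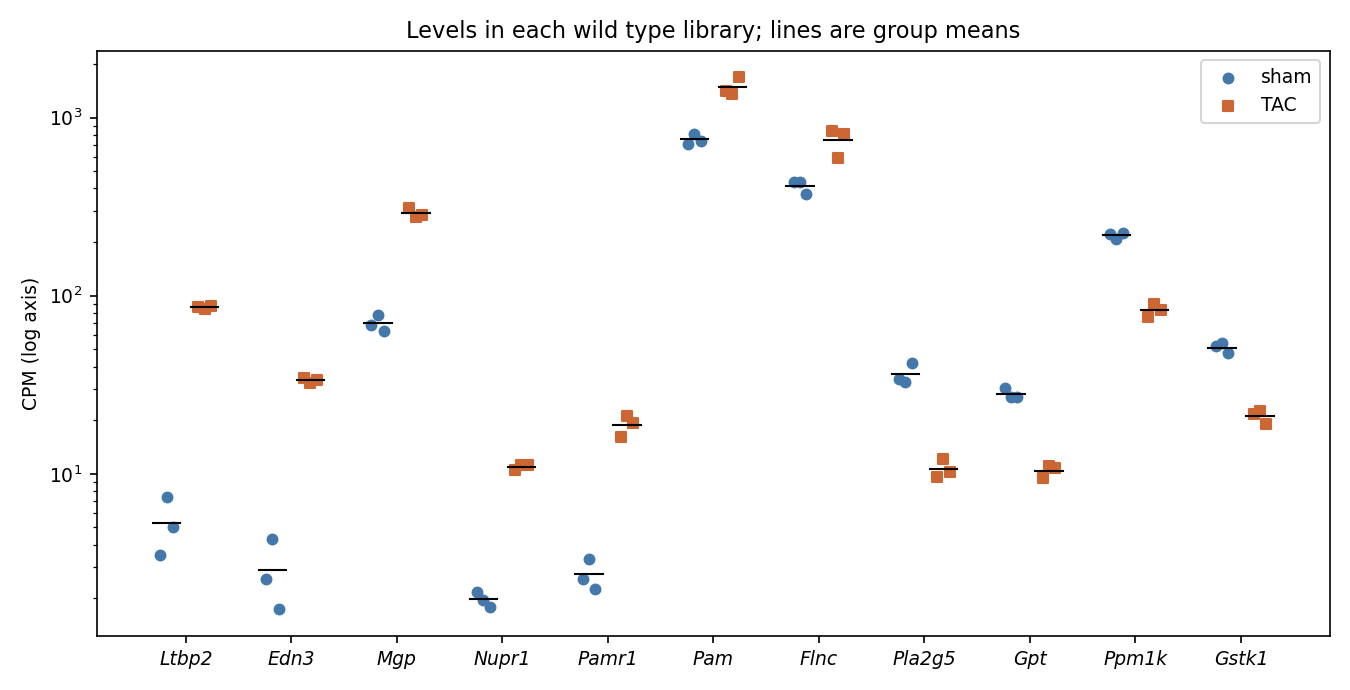
Levels of 11 genes in each wild type library on a log axis of CPM (blue circles sham, orange squares TAC, lines the group means). The 7 genes on the left lie above sham in every TAC library and the 4 on the right, such as Ppm1k at 208 to 225 CPM after sham and 76.2 to 89.7 after TAC, lie below it.

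Cardiomyocyte identity genes fell modestly. Of 19 ventricular cardiomyocyte markers 10 fell and 2 rose (median -0.31), and their summed level was 80460 to 90750 CPM after sham and 61930 to 72920 after TAC. Their share of all counts, without TMM factors, overlapped, at 9.01%, 7.76% and 7.77% after sham and 6.95%, 8.05% and 7.38% after TAC. With library totals 5 fell and 3 rose (median -0.12). Tnni3, the cardiac troponin I, went from 2925, 2892 and 2899 to 1809, 2095 and 1717 CPM, and Slc2a4, the insulin-dependent glucose transporter, fell by 0.73 on the log2 scale. Actc1, Mb and Fabp3 were at 0.05, -0.15 and -0.01, not called, so the list did not fall as a block. The membrane systems of the cell split inside each list. Of 19 T-tubule and triad genes 6 fell, including Jph1, which ties the sarcoplasmic reticulum to the cell membrane (36.995, 36.523 and 36.493 to 24.6, 22.2 and 22.5 CPM), and 4 rose, including the membrane-bending gene Bin1 (1.82-fold). Of 21 intercalated disc genes 6 fell and 5 rose: the desmosomal cadherin Dsg2 went from 142, 120 and 140 to 67.7, 86.6 and 74.7 CPM, and Xirp1, a relative of Xirp2, from 273, 316 and 257 to 441, 356 and 505. Without TAC replicate 3, 3 disc genes were called higher. Of 59 potassium channel genes 14 fell and 6 rose (median -0.15, 0.025 with library totals). Kcnj3, a subunit of the acetylcholine-gated channel, fell 2.85-fold, from 150, 132 and 153 to 44.2, 61.2 and 47.2 CPM, and Kcnv2, a silent subunit, 5.93-fold. The lower count is 8 with library totals, and the higher count 3 without TAC replicate 3. The genes that rose were low, for example Kcnj15, which reached 4.30, 5.33 and 6.10 CPM.

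Pairs of genes for the same protein moved apart. For 32 pairs, a broadly expressed or fetal gene was set against the one that predominates in adult muscle, as the ratio of their CPM in each library, which does not depend on library scaling. The ratio is not corrected for gene length, so only its change is read. In 31 pairs both genes were tested. The ratio was higher in all TAC libraries than in all sham libraries in 22 pairs, lower in 1 and overlapping in 8, with a median log2 change of 0.58. Among all tested single genes, every TAC library lay above every sham library in 21.9% and below in 21.2%. Pairs of unrelated genes were not measured beside these. With 3 libraries against 3 an exact permutation test cannot give a p below 0.1, so none is given. The muscle gene was called lower in 19 pairs and the other called higher in 13, both in 6. These calls do depend on scaling: with library totals they number 10, 18 and 5. Hexokinase was such a pair: Hk1 rose from 180, 173 and 187 to 239, 245 and 265 CPM, and Hk2 fell from 512, 442 and 490 to 365, 346 and 347. The ratio of Pfkp to Pfkm, the platelet and muscle forms of phosphofructokinase, went from 0.025, 0.043 and 0.032 to 0.160, 0.085 and 0.161, and that of the creatine kinases Ckb to Ckm from 0.016, 0.019 and 0.016 to 0.035, 0.030 and 0.037. That of Rpl3 to Rpl3l, 2 forms of a ribosomal protein, went from 0.209, 0.236 and 0.230 to 0.892, 0.730 and 1.20. The others of the 6 were Eno1 and Eno3 (enolase) and Sgce and Sgca (sarcoglycan). Eno1 was not called without sham replicate 1 or 2 or without TAC replicate 2 or 3 (edgeR adjusted p 0.0552 to 0.112). Ldha to Ldhb changed by 0.72. Ldhb fell from 1037, 1040 and 932 to 644, 654 and 611 CPM, while Ldha was at 0.07 and not called. With library totals Ldha was called higher. The filamin pair ran the other way, by -0.76.

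**Figure D5:**
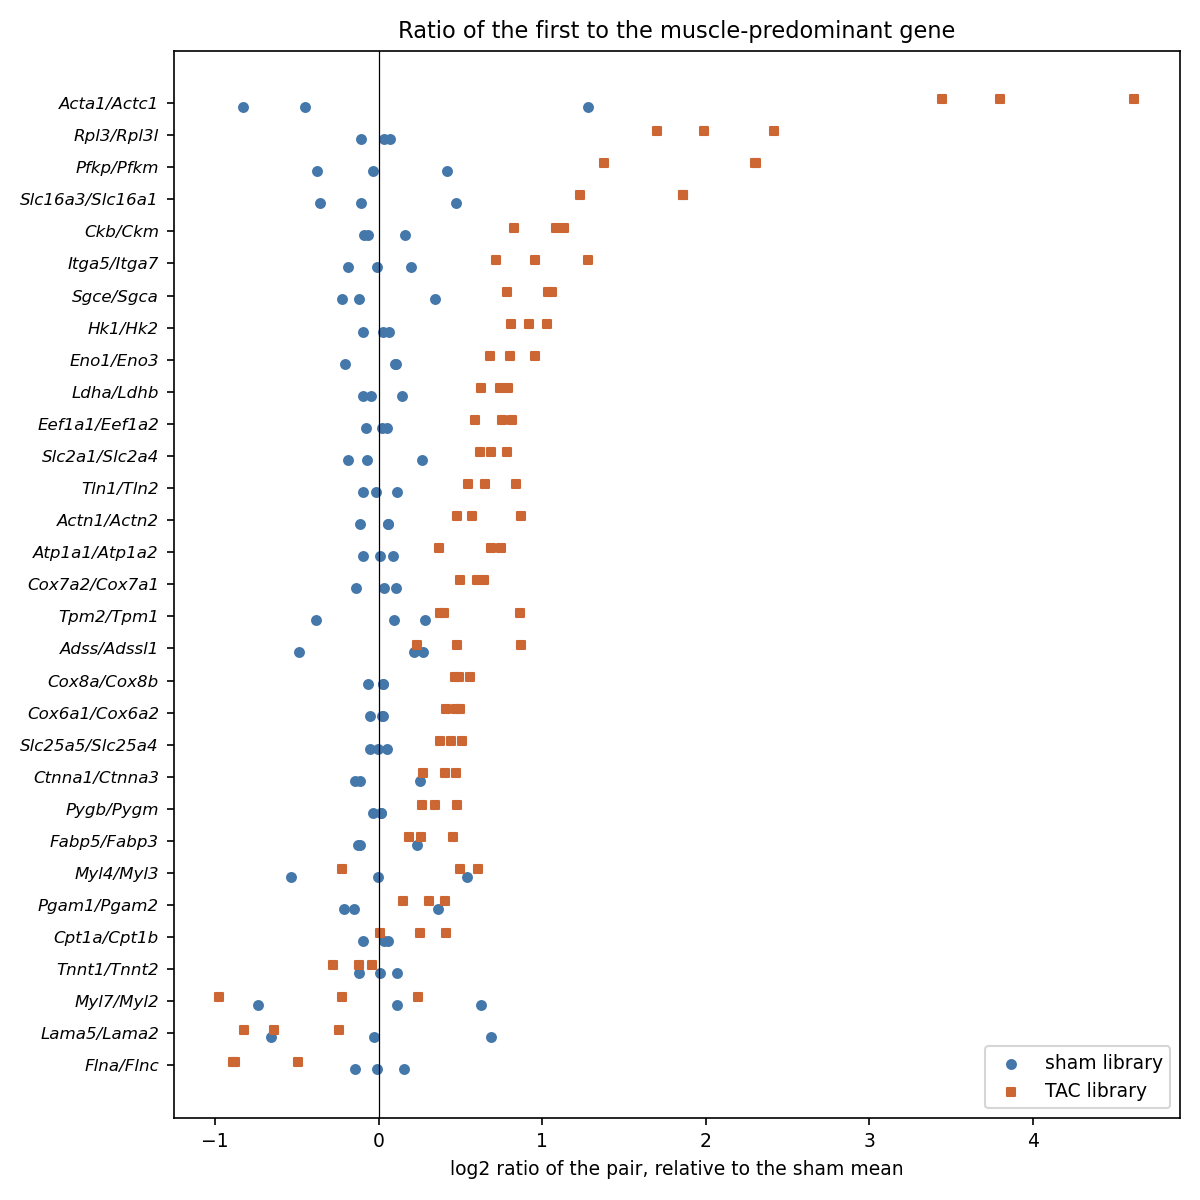
Log2 ratio of the CPM of each gene pair in each library, relative to the mean of the sham libraries (blue circles sham, orange squares TAC); the first gene named is the numerator. In 22 of 31 pairs all TAC libraries lie to the right of all sham libraries, most of them by under 1, and Flna/Flnc lies to the left.

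Glucose and glycogen genes showed both directions. Of 37 genes 13 fell and 8 rose (median -0.14). The higher count was 4 without sham replicate 1, 5 without sham replicate 3, 4 without TAC replicate 3 and 16 with library totals. Pfkfb1, an isoform of the enzyme that sets fructose 2,6-bisphosphate, fell 8.24-fold, from 22.8, 10.7 and 12.7 to 2.13, 1.80 and 1.68 CPM (chromosome X, 150588229 to 150643878). Phkg1, the catalytic subunit of phosphorylase kinase, fell 3.18-fold, and Fbp2, the muscle fructose bisphosphatase, 2.75-fold, from 27.0, 25.3 and 26.8 to 10.5, 9.48 and 8.71 CPM. Slc16a3, a lactate exporter, rose 2.89-fold, from 1.06, 1.38 and 0.929 to 3.25, 2.56 and 4.00 CPM. Gpt, which moves amino groups between alanine and glutamate, fell from 30.2, 27.1 and 27.2 to 9.48, 11.1 and 10.8 CPM. Amino acid transporters mostly went the other way, with 9 of 18 higher and 4 lower (median 0.44). The glutamate carrier Slc1a3 rose 3.98-fold, and Slc36a2, a carrier of small neutral amino acids, fell 2.40-fold.

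Beyond the enzymes of fuel oxidation, lists of genes that build and maintain mitochondria had medians between -0.15 and -0.32. Single members spread more widely, for example from -1.38 to 0.301 among mitochondrial ribosomal proteins. Of the 15 genes of mitochondrial DNA maintenance and transcription 8 fell and none rose, and all 15 values were below 0 (median -0.31). Their mean level stood at -0.41, -0.40 and -0.40 in the TAC libraries. Lrpprc, which stabilises mitochondrial mRNAs, went from 306, 287 and 288 to 183, 190 and 181 CPM. Top1mt, the mitochondrial topoisomerase, went from 4.082, 3.795 and 2.787 to 1.58, 1.73 and 1.75 CPM. Of 41 genes matched as complex I subunits 30 fell and none rose (median -0.29), with Ndufs1, a core subunit, from 782, 747 and 799 to 496.6, 532.8 and 503.8 CPM. Of 11 coenzyme Q genes 7 fell and 1 rose (median -0.32), with Coq9 from 327, 334 and 303 to 223, 220 and 204 CPM. Of 22 genes of mitochondrial dynamics and mitophagy 12 fell (median -0.25). The fusion protein Opa1 went from 378, 393 and 389 to 256, 265 and 262 CPM, the kinase Pink1 fell 1.66-fold, and the mitophagy receptor Bnip3 rose 1.42-fold. Protein import (10 of 31 lower, median -0.15) and mitochondrial ribosomal proteins (23 of 79 lower, 2 higher, median -0.15) moved least, and without TAC replicate 3 the latter count was 10. The DNA maintenance count was 5 without TAC replicate 2. The scaling changed how many passed: with library totals complex I has 7 lower (median -0.11), DNA maintenance 5 (-0.13), coenzyme Q 2 (-0.14) and dynamics 4 (-0.063). With library totals the import list has 2 lower and the ribosomal list 4, and their medians lie above 0, at 0.036 and 0.038. With totals of nuclear genes alone complex I has 22 lower (median -0.24) and DNA maintenance 6 (-0.25).

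Families of detoxification and lipid handling differed from one another. Cytochromes P450 had 3 of 22 lower, a share near that over all genes, and 1 higher, and fatty acid synthesis 2 of 16 lower. Sphingolipid metabolism had 7 of 21 higher and 0 lower. Of 22 glutathione S-transferase genes 9 fell and none rose (median -0.51; with library totals 5 fell and the median was -0.31). Gstk1, the mitochondrial and peroxisomal form, went from 52.0, 54.1 and 47.4 to 21.7, 22.5 and 18.9 CPM, and Gstm1 from 142, 128 and 129 to 69.2, 78.0 and 64.6. Of 10 acyl-CoA thioesterases 5 fell and 1 rose (3 lower with library totals), with Acot1, a cytosolic form, 5.50-fold lower. Of 38 ABC transporters 13 fell and 1 rose, including the peroxisomal fatty acid carrier Abcd2 (2.73-fold); 8 fell with library totals. Pla2g5, a secreted phospholipase, went from 34.2, 32.7 and 42.0 to 9.61, 12.1 and 10.2 CPM (chromosome 4, 138799244 to 138863482). Ces1d, a carboxylesterase that acts on stored triglyceride, fell 9.82-fold, from 120, 89.8 and 118 to 11.2, 15.5 and 6.56 CPM. Of the 5 carboxylesterases tested it was the 1 called lower, and 1 was called higher. Ppm1k, the phosphatase that switches on branched-chain ketoacid breakdown, and Nadk2, the mitochondrial NAD kinase, fell 2.63-fold and 2.53-fold. The estrogen-related receptor motif AAGGTCA, in either orientation, was found in 3.36% of all promoters, 5.84% of those of genes at least 2-fold lower and 2.98% of those at least 2-fold higher. It was found in 3 of the 34 promoters of complex I genes, 5 of the 29 of import genes and 3 of the 31 of collagen chains, most of which rose. Estrogen-related receptors drive many mitochondrial genes, and the following windows, chosen in the same way, show 3 genes that fell with the motif read on the other strand as TGACCTT: Pfkfb1 (chrX:150589791-150589847, plus strand), Gstk1 (chr6:42245769-42245825, plus strand) and Hspd1 (chr1:55088075-55088131, minus strand), which encodes the mitochondrial chaperonin.
Pfkfb1: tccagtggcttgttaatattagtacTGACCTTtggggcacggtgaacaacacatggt
Gstk1: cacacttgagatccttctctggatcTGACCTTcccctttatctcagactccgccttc
Hspd1: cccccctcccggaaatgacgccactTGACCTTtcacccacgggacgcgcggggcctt
Hspd1 fell from 316, 377 and 362 to 278, 246 and 232 CPM, a 1.40-fold fall. Its call and direction were the same in each alternative run. The Pfkfb1 window lies upstream of a RefSeq start but inside the gene as GENCODE places it, which begins at 150588229 on the plus strand.

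Kinesins, the motors that walk on microtubules, rose in 12 of 33 genes and fell in 3 (median 0.43). Over the 13 kinesins with a mean of at least 5 CPM the median was 0.0055. The abundant cargo motor Kif5b went from 239, 295 and 286 to 477, 388 and 487 CPM. Kif20a, a motor of cell division, rose at a low level, from 1.52, 1.45 and 1.25 to 2.94, 3.76 and 3.79 CPM. Cenpf, a kinetochore protein, stood against them: it was among the largest falls, from 68.8, 53.8 and 121 to 9.89, 20.7 and 17.1 CPM. Of 19 circadian clock genes none was called in the edgeR test, 3 had an unadjusted p under 0.05, DESeq2 called 2 and limma-voom 1. Of 17 guanylate-binding and immunity GTPases, which mark the response to interferon, none was called by edgeR, DESeq2 or limma-voom, and 1 had an unadjusted p under 0.05.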

How the data were processed

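RNA from left ventricle was sequenced as single-end mRNA libraries of 75 cycles, per the labels' protocols. The deposited values are raw counts per gene; the submitters' processing notes name mm10, featureCounts with Subread 1.6.3, the aligner STAR 2.7.3a, Trim Galore 0.6.4 and limma 3.50.3. Neither the strand setting nor the annotation release is stated there, so overlapping genes cannot be told apart. Gene positions came from GENCODE M21, which matched 15230 of the 15243 tested genes, and promoters from RefSeq (GRCm38.p6).

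Genes with at least 10 counts in at least 3 of the 6 wild type libraries were fitted over all 12 libraries, as 4 groups, with edgeR 4.0.16 in R 4.3.3 (TMM, robust quasi-likelihood F test, Benjamini-Hochberg adjustment, threshold 0.05). Group comparisons used the contrast of wild type TAC against wild type sham, and SE is the fold change over the root of F. Fold changes are log2, and per-library list levels are means of log2 CPM with a prior count of 2. On simulated data of 15243 genes the test recovered 40.3% of 1.5-fold, 77.6% of 2-fold and 93.9% of 4-fold changes. There were 7 false calls among the unchanged genes. Changes were placed only in genes with a mean over 1 CPM across the 12 libraries, so recovery below that level was not measured. The simulation changed only 67, 67 and 66 genes at these sizes, far fewer than were called here, so recovery in the data may differ. The biological coefficient of variation was 16.9%, and no 2 libraries of a group were alike within sampling noise (chi-square per degree of freedom at least 21.3).

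Named genes are the 12 largest rises and falls among called genes with at least 5 CPM and no overlap, the 10 largest gains and losses in CPM (mitochondrially encoded genes apart), the 10 smallest p-values besides, and members of the lists, families and pairs; a few such genes are not reported here. The genes, lists and tests were chosen with earlier results of these data known. Alternatives were other scalings, filters and tools, only the 6 wild type libraries, and leaving out each library. DESeq2 1.42.0 and limma 3.58.1 (voom) served as the other tools.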

Additional observations from a re-analysis of the deposited data

How the results depend on the processing

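The scaling had the largest effect on the counts of called genes. With library totals alone 3882 genes were higher and 945 lower, 1049 and 219 of them at least 2-fold, against 1963, 1996, 668 and 343. The cause was not tested; TMM factors of the wild type libraries were 0.935 to 0.993 after sham and 1.06 to 1.12 after TAC. With totals of nuclear genes alone, an alternative chosen after seeing the data, 2273 were higher and 1494 lower. The remaining scalings, filters, tools and the fit of the 6 wild type libraries gave 1781 to 2179 higher and 1796 to 2211 lower; DESeq2 gave 11 genes no adjusted p. Leaving out 1 library gave 1383 to 1737 higher, 1442 to 1799 lower, 550 to 681 at least 2-fold higher and 272 to 397 at least 2-fold lower. Of the genes described, Ckm, Sgca and Psap lost their calls with library totals, and Ldha, Pdgfra and Pecam1 were then called higher. No named gene that was called changed its sign in any alternative. No paired analysis was possible because the titles give every library the same replicate number. Of the calls, 743 of the higher and 1189 of the lower were under 1.5-fold. The simulated data held no changes that small, so recovery at that size was not measured.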
